A study of Mus musculus with 6 samples.

Results

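Mouse protein-coding genes with symbols that begin Mrpl or Mrps and go on with a number are nuclear genes, and they encode nearly all of the protein part of the mitochondrial ribosome. They were taken from the deposited table by that name pattern and by the label protein-coding, which gave 78 genes among its 32067 rows. The name pattern itself uses no measured value. A further 5 pseudogene rows with names of the same kind were left out, and none of them reached more than 43 counts in a library. RNA came from the hippocampus of wild type female C57BL/6J mice, as 6 libraries that the labels call biological replicates. Whether a library is 1 mouse or a pool is not given in the labels. Every mouse had both ovaries removed at 8 weeks of age and was 17 weeks old at collection. The OVX mice (3 libraries) ate a control diet from 8 to 17 weeks, and the OVX+RJ mice (3 libraries) ate, over the same weeks, a diet holding 1% royal jelly, a secretion with which worker honeybees feed larvae and queens. The design asks what the royal jelly diet does to hippocampal RNA after loss of the ovaries. A sham-operated group is not analysed here, so every comparison is between mice without ovaries.

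The mitochondrial ribosome, or mitoribosome, makes the few proteins that mitochondrial DNA encodes, all of them core parts of the respiratory chain and of ATP synthase. Its ribosomal RNAs are copied from mitochondrial DNA, while its proteins are translated in the cytosol and imported. Some of these proteins have counterparts in bacterial ribosomes, and others are found in mitochondria only. Neurons depend on respiration for synaptic work, and inherited defects of several mitoribosomal proteins cause severe disease of brain, heart or liver. By their place in the ribosome, 51 of the 78 genes encode proteins of the large subunit and 26 of the small subunit. The large-subunit set includes Mrps30 and Mrps18a, whose names point to the small one. The last gene, Mrps36, keeps the name although its product is now known as a part of the alpha-ketoglutarate dehydrogenase complex.

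The genes lie on 17 chromosomes. Many start close to another gene that is read away from them: 22 of the 78 (28.2%) had such a start within 1000 bases, against 9.57% of the 14355 protein-coding genes tested that had an annotated start. The stretches between 3 such pairs of starts are shown because the genes on either side are compared below. The bases between the annotated starts, outside every exon annotated in RefSeq, are given on the strand of the first gene (build GRCm38.p6). The stretches lie at chr7:78783090-78783118, chr7:28741822-28741967 and chr19:45006443-45006557. For the first pair these are 29 of the 41 bases between the starts. In GENCODE M21, exons of Mrpl46 and Mrps11 overlap on opposite strands, as do those of Mrpl43 and Twnk. Capitals mark the ETS motif CCGGAAG, where it occurs.

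Mrpl46 and Mrps11: gcccctcgccggcccgcgttgcctcatgg

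Mrps12 and Sars2: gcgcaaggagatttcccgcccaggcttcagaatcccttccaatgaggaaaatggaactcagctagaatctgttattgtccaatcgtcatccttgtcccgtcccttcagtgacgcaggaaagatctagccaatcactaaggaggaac

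Mrpl43 and Twnk: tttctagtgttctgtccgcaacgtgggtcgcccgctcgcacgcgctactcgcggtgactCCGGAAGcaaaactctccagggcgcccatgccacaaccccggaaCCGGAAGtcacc

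The first stretch is 79.3% G and C, the second 49.3% and the third 63.5%. The third holds the ETS motif at 2 places, and the first and second hold none of the motifs searched.

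Promoter windows, from 250 bases before to 50 after a start, were available for 69 of the 78 genes. They were searched on both strands for letters bound by regulators of nuclear genes for mitochondrial proteins: GCGCANGCG for NRF1, CCGGAAG for the ETS family (which includes Gabpa) and AAGATGGCG for YY1. The NRF1 letters stood in 16 of the 69 windows (23.2%), against 13.7% of the windows of 11652 protein-coding genes tested. The ETS letters stood in 26 (37.7% against 17.8%), and the YY1 letters in 8 (11.6% against 3.08%). At least 1 of the motifs was found in 42 windows (60.9%), against 30.3%. A match is a description of the letters and not a measured site. The following windows of 30 bases, before the start and on the strand that carries the motif, are shown for genes described below. Capitals mark the motif, which is the NRF1 motif in the first 4 and the ETS motif in the last 2.

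Mrpl12, chr11:120484546-120484575, minus strand: gcggtgcgacGCGCAGGCGcggagacaata

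Mrpl30, chr1:37890365-37890394, plus strand: cttccaggaaGCGCACGCGtgacgccgctg

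Mrpl44, chr1:79775973-79776002, plus strand: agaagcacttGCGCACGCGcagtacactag

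Mrps21, chr3:95871586-95871615, plus strand: tcggtgctgaGCGCAGGCGctggactttcc

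Mrps18a, chr17:46110967-46110996, plus strand: acacccctgctCCGGAAGcggaagtgcaca

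Mrps18c, chr5:100798591-100798620, minus strand: cgcttcccgggCCGGAAGtcacgtgacccg

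Fold changes are given beside the motifs as a description, and no difference was tested. The median log2 fold change, OVX+RJ over OVX, was -0.043 for the 16 genes with the NRF1 letters and -0.075 for the other 53. It was -0.059 with and -0.075 without the ETS letters, and -0.064 with and -0.066 without the YY1 letters. Over all tested protein-coding genes with a window, the medians with and without were -0.012 and -0.013 for NRF1, -0.021 and -0.011 for ETS, and -0.020 and -0.013 for YY1.

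The libraries held 34718596.5 (OVX 1) to 58163785 counts (OVX 2), and the level of a gene is given in CPM, its share of the counts of all rows scaled to a common total. All 78 genes passed the filter on low counts, which left 18629 features, and they held 112 (Mrpl53 in OVX+RJ 1) to 3490 counts (Mrpl48 in OVX 2) in a library. OVX+RJ 1 stood apart from the other 5 libraries: its mean correlation with them was 0.983, against 0.986 to 0.987 for the others, and it lay alone on the first principal component (28.8% of the variance). Fixed marker lists for granule cells, CA1 and CA2 and CA3 pyramidal cells, neurons, astrocytes and oligodendrocytes had counts for every marker in every library, and 1 of 6 choroid plexus markers was at 0 in at least 1 library.

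Per kilobase (kb) of annotated transcript, the 78 genes covered a range from 3.18 CPM per kb for Mrpl17 to 39.4 CPM per kb for Mrpl33 and had a median of 14.03. Mrpl33, whose product binds ribosomal RNA of the large subunit, stood at 41.0 CPM per kb without royal jelly and at 37.9 with it. In the small subunit the highest was Mrps21 at 40.4 CPM per kb in OVX and 36.1 in OVX+RJ, and the lowest was Mrps35 at 3.21 and 3.26. The genes at the bottom have long annotated transcripts, 7300 bases for Mrpl17 and 4162 for Mrps35, and those at the top have short ones, 478 for Mrpl33 and 488 for Mrps21, so this order rests on which transcript is taken as the gene's length. Protein levels were not measured.

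**Figure D1:**
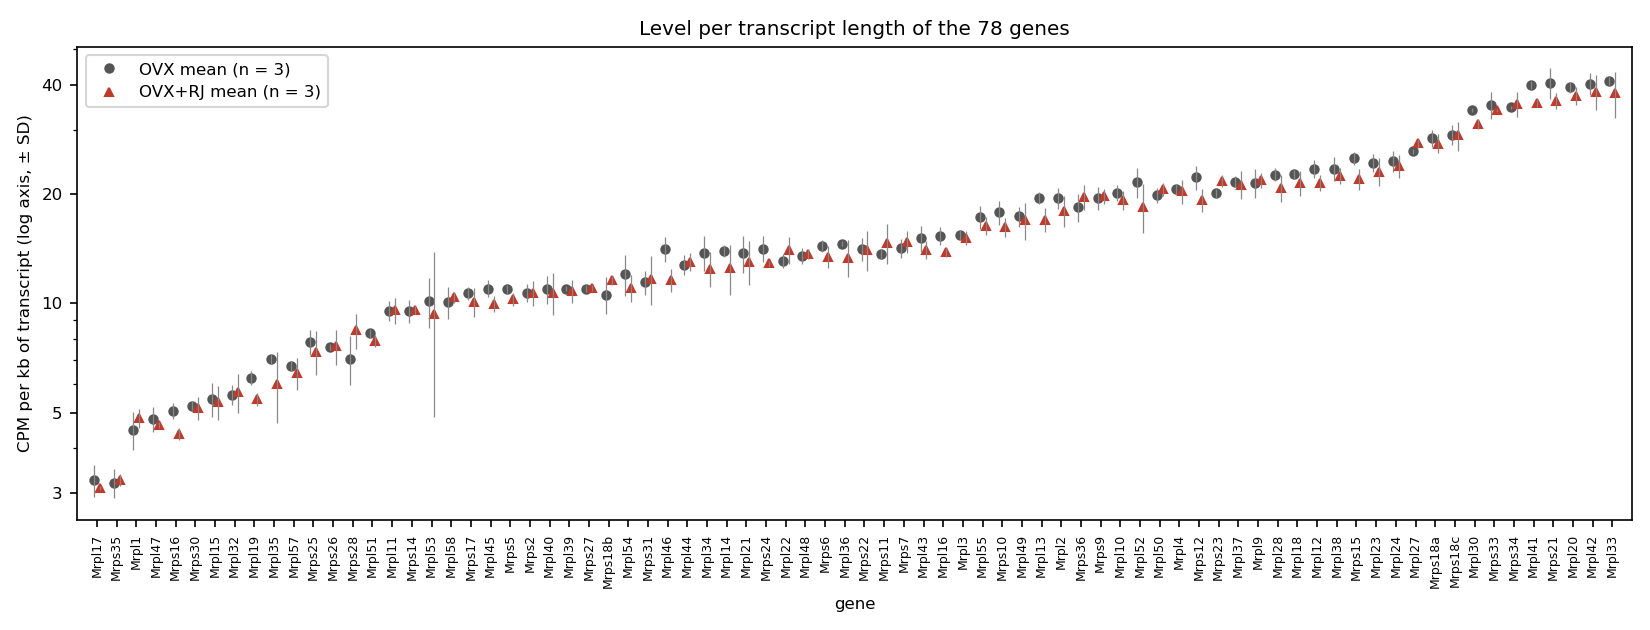
Mean level of each of the 78 genes in OVX (circles) and OVX+RJ (triangles), in CPM per kb of annotated transcript on a log axis, with vertical bars for the SD over 3 libraries. The genes run from Mrpl17, at 3.18 CPM per kb over all 6 libraries, to Mrpl33, at 39.4, and circles and triangles of a gene lie close together compared with that range.

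No mitoribosomal gene passed the test between OVX+RJ and OVX. The largest log2 fold changes were -0.28 (Mrpl46) and 0.26 (Mrps28), and the lowest adjusted p among the 78 genes was 0.983 (edgeR quasi-likelihood test with Benjamini-Hochberg adjustment over all genes). Over the whole series 0.0% of 18629 features were called higher and 0.0% lower. At an unadjusted p under 0.05 there were 750 features (4.03%), DESeq2 called 12 features and limma-voom 0, and none of the 12 was a mitoribosomal gene. Taken gene by gene, the 95% interval of limma lay within 1.5-fold in either direction for 75 of the 78 genes, and for 74 it held 0. These intervals are separate ones, not joint over the 78 genes, and do not come from the edgeR test. The median standard error of a log2 fold change was 0.091.

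Small negative differences outnumbered positive ones. Of the 78 genes, 55 were negative in log2 fold change (70.5%) and 23 positive, while 53.6% of all features tested were negative. The median was -0.066, against -0.012 over all features. At an unadjusted p under 0.05, 3 genes were lower (3.85%, against 2.2% of all features) and 0 were higher (against 1.83%). The groups did not overlap, with all 3 OVX+RJ libraries lower, for 11 genes (14.1%, against 5.95%), and with all 3 higher for 2 genes (2.56%, against 4.53%). The median was -0.044 without OVX 2 and -0.040 without OVX+RJ 3. The count at an unadjusted p under 0.05 was 0 without OVX 1, OVX 2 or OVX+RJ 3 in turn, and 5 without OVX+RJ 2. In bulk tissue, fewer cells of a type and less RNA per cell cannot be told apart.

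**Figure D2:**
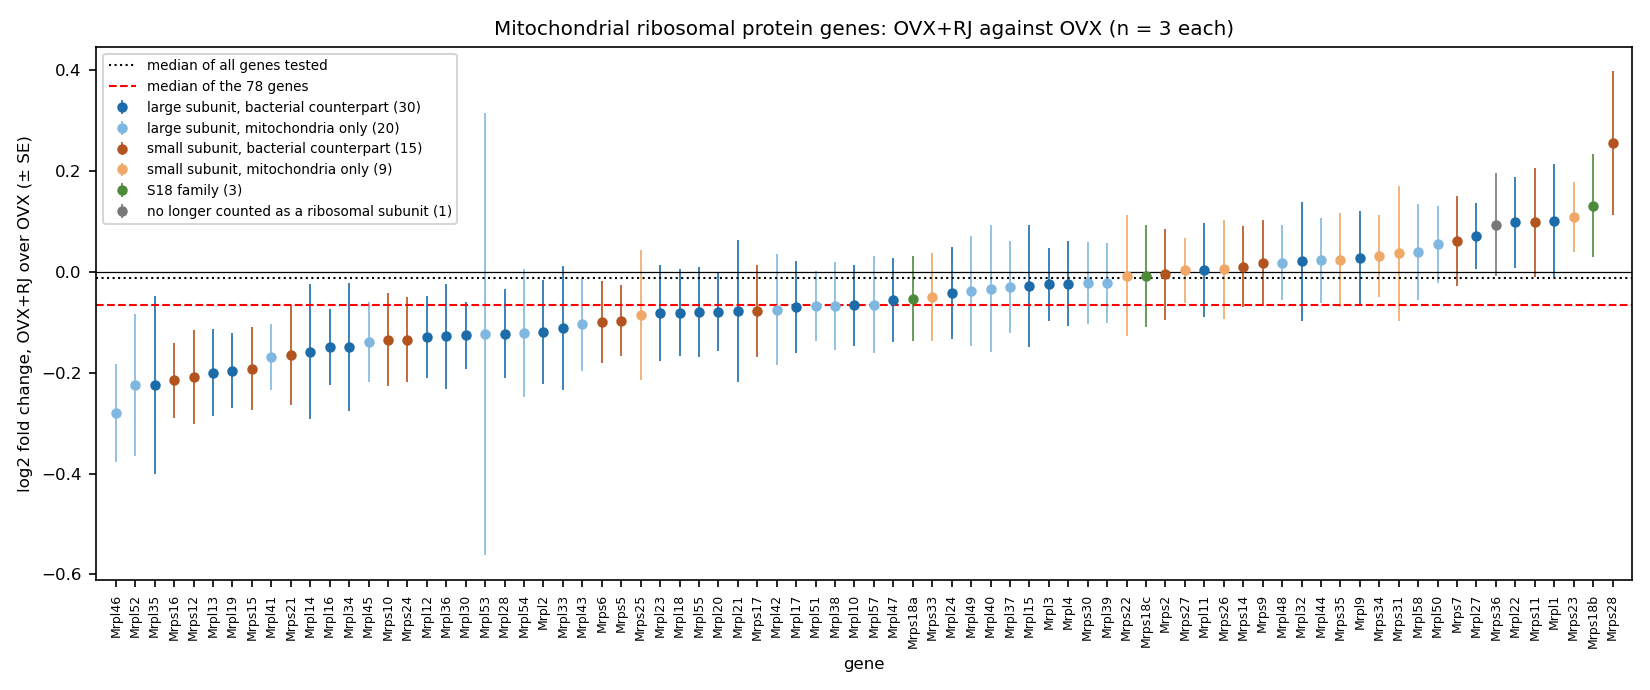
Log2 fold change, OVX+RJ over OVX, of each of the 78 genes in order of size, with bars for the standard error (3 libraries per group) and colours for the subunit and origin of the protein. Of the points 55 lie under 0, the dashed line marks the median of the 78 genes (-0.066) and the dotted line the median of all features tested (-0.012).

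Summed over the 78 genes, the mitoribosomal RNA came to 1839, 1875 and 1867 CPM for the OVX libraries 1, 2 and 3, against 1791, 1822 and 1772 CPM for the OVX+RJ libraries 1, 2 and 3. Each OVX+RJ library was below each OVX library, and the means were 1860 ± 19.1 CPM for OVX against 1795 ± 25.5 CPM for OVX+RJ (SD, n = 3 each), a difference of -3.51%. With the TMM factors of edgeR in place of plain totals, the sums were 1820, 1873 and 1867 against 1832, 1811 and 1763 CPM, and the groups overlapped, as OVX+RJ 1 was then above OVX 1. Summed markers of several cell types were lower in every OVX+RJ library than in every OVX library: 6 endothelial markers at 169 to 189 against 205 to 218 CPM, 6 markers of pericytes and smooth muscle at 154 to 161 against 172 to 180 CPM, 6 microglial markers at 218 to 229 against 233 to 239 CPM and 6 astrocyte markers at 1913 to 1979 against 1997 to 2044 CPM. In the first 3 of these lists 5 of 6 markers were negative in log2 fold change, and in the astrocyte list all 6. The sums of 6 neuronal markers overlapped, at 5575 to 5942 against 5406 to 5682 CPM. So did those of oligodendrocytes, at 3554 to 4774 against 2949 to 4868 CPM, and of granule cells, at 355 to 499 against 408 to 536 CPM. The sums for CA1 and for CA2 and CA3 pyramidal cells, choroid plexus and red blood cells overlapped as well. The part of cell composition in the mitoribosomal sums was not tested.

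Of the 51 large-subunit genes, 41 were negative, and the median was -0.069. The median was -0.079 for the 30 with a bacterial counterpart (24 negative) and -0.066 for the 20 found in mitochondria only (16 negative). The remaining large-subunit gene is Mrps18a, of the S18 family, which was counted apart from these classes.

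Mrpl46, which encodes a mitochondria-only protein of the central protuberance, measured 15.9, 17.3 and 14.7 CPM in the OVX libraries against 13.5, 13.8 and 12.1 CPM with royal jelly. All 3 OVX+RJ libraries were below the lowest OVX library, and its log2 fold change of -0.28 (SE 0.097; edgeR adjusted p = 0.983) was the lowest of the 78. Mrpl41, another mitochondria-only protein of this subunit, measured 31.9, 30.9 and 30.4 CPM in the OVX libraries against 28.1, 27.9 and 26.9 CPM with royal jelly. The libraries of each group lay close together, and the log2 fold change was -0.17 (SE 0.066; edgeR adjusted p = 0.983).

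Mrpl19, whose product sits where the subunits meet, measured 32.6, 31.1 and 29.8 CPM in the OVX libraries against 26.2, 28.4 and 27.0 CPM with royal jelly. The groups did not overlap, and its log2 fold change was -0.20 (SE 0.074; edgeR adjusted p = 0.983). Mrpl13 measured 24.6, 22.9 and 24.1 CPM in the OVX libraries against 21.4, 19.0 and 21.9 CPM with royal jelly, a log2 fold change of -0.20 (SE 0.086). Mrpl30 measured 32.9, 33.5 and 32.6 CPM in the OVX libraries against 29.3, 30.2 and 31.3 CPM with royal jelly. Here too each OVX+RJ library was below each OVX library, although the log2 fold change was only -0.13 (SE 0.066). Mrpl16 was the remaining large-subunit gene whose OVX+RJ libraries were all lower, at -0.15 (SE 0.075). In all, 6 of the 51 large-subunit genes (11.8%) were lower without overlap, against 5.95% of all features. Mrpl27 was the only large-subunit gene whose OVX+RJ libraries were all higher (1.96%, against 4.53% of all features), by a narrow margin. It measured 19.8, 20.1 and 19.5 CPM in the OVX libraries against 20.9, 20.1 and 21.4 CPM with royal jelly, a log2 fold change of 0.072 (SE 0.066).

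For Mrpl35 and Mrpl53 OVX+RJ 1 lay far below the other libraries. Mrpl35 measured 26.1, 25.3 and 27.0 CPM in the OVX libraries against 16.9, 26.5 and 23.7 CPM with royal jelly. The groups overlapped, and the log2 fold change of -0.22 had an SE of 0.18. Without OVX+RJ 1 it was -0.057. Mrpl53, which encodes a protein near the stalk, measured 5.90, 7.19 and 8.10 CPM in the OVX libraries against 2.91, 8.23 and 8.34 CPM with royal jelly. Without OVX+RJ 1 its OVX+RJ libraries were both above every OVX library, and its SE of 0.44 was the largest of the 78 genes. Mrpl52, of the central protuberance, had a log2 fold change of -0.22 (SE 0.14) with overlapping groups, at 8.78, 8.27 and 9.96 CPM in the OVX libraries against 7.69, 6.53 and 8.90 CPM with royal jelly.

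**Figure D3:**
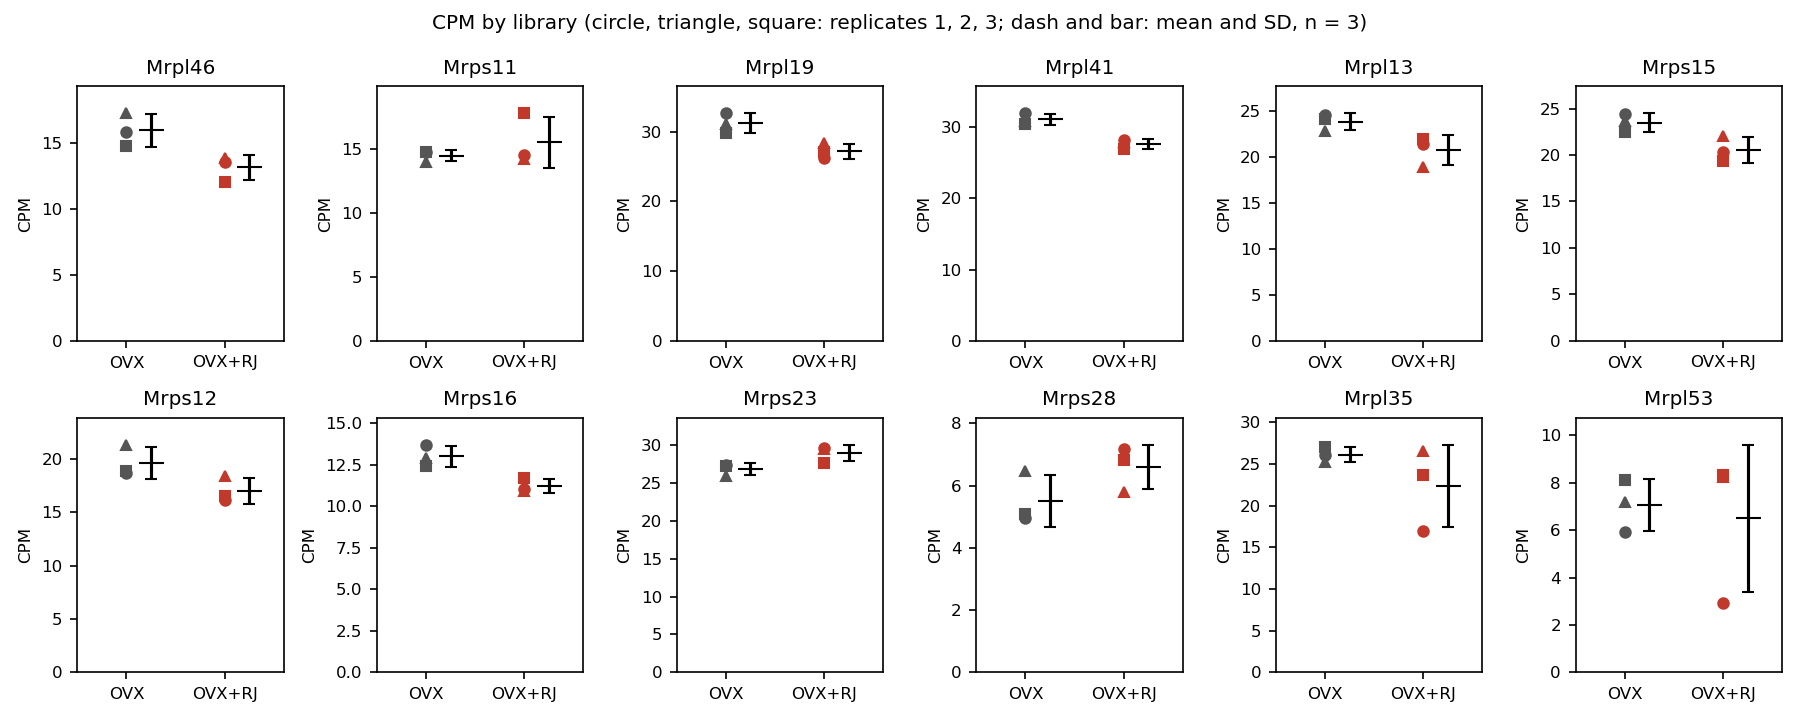
Level in CPM of 12 mitoribosomal genes in each library, with a circle, a triangle and a square for replicates 1, 2 and 3 of a group and a dash with a bar for the mean and SD (n = 3). The groups are separate for Mrpl46, Mrpl19, Mrpl41, Mrpl13, Mrps15, Mrps12 and Mrps16 (lower in OVX+RJ) and for Mrps23 (higher), while in Mrpl35 and Mrpl53 the circle of OVX+RJ 1 lies alone at the bottom.

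Large-subunit genes fixed for their roles had log2 fold changes between -0.14 and 0.040. Mrpl12 and Mrpl10, of the stalk that contacts elongation factors, had log2 fold changes of -0.13 (SE 0.081) and -0.066 (SE 0.081). Mrpl12 measured 28.9, 32.4 and 31.2 CPM in the OVX libraries against 27.4, 27.4 and 29.8 CPM with royal jelly, groups that overlapped. Mrpl3, near the site of peptide bond formation, was at 62.6, 59.1 and 61.9 CPM without and at 59.0, 63.4 and 58.2 CPM with royal jelly, overlapping groups with a log2 fold change of -0.025 (SE 0.072). Mrpl45, which faces the inner membrane at the exit of the peptide tunnel, measured 27.2, 27.8 and 25.1 CPM in the OVX libraries against 24.5, 25.3 and 22.9 CPM with royal jelly. The groups overlapped by 1 library, and the log2 fold change was -0.14 (SE 0.080). Mrpl44, which has an RNase III fold, was at 0.023 (SE 0.084), and Mrpl58, a peptidyl-tRNA hydrolase that is built into the ribosome, at 0.040 (SE 0.096). Mrps30 was at -0.022 (SE 0.081). Mrpl17 and Mrpl33, named as the lowest and the highest per length in this subunit and not for a role, were at -0.069 (SE 0.092) and -0.11 (SE 0.12). Mrpl17 was at 0.013 without OVX 1, and Mrpl33 at 0.0012 without OVX+RJ 1.

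In the small subunit 14 of 26 genes were negative, with a median of -0.006. This is near the -0.012 of all features, and with TMM factors it was 0.006, with 11 of 26 negative, while 41 of the 51 large-subunit genes were negative there too. Without OVX+RJ 1 the small-subunit median was -0.044 (15 of 26 negative) and the large-subunit median -0.066 (39 of 51 negative). Without each other library in turn the small-subunit median lay between -0.023 and -0.015, also further below 0 than with all libraries. The difference between the subunits was not tested. The 15 small-subunit genes classed with a bacterial counterpart had a median of -0.097 and 10 were negative. Mrps18b and Mrps18c, of the S18 family, were counted apart from these classes. The 9 found in mitochondria only had a median of 0.006 and 3 were negative.

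Mrps12, whose product lines the decoding centre, measured 18.7, 21.3 and 18.9 CPM in the OVX libraries against 16.1, 18.4 and 16.5 CPM with royal jelly. No OVX+RJ library reached the lowest OVX library, and the log2 fold change was -0.21 (SE 0.093; edgeR adjusted p = 0.983). Mrps15 measured 24.4, 23.7 and 22.4 CPM in the OVX libraries against 20.3, 22.0 and 19.3 CPM with royal jelly, a log2 fold change of -0.19 (SE 0.082). Mrps16 measured 13.7, 12.9 and 12.4 CPM in the OVX libraries against 11.04, 10.9 and 11.7 CPM with royal jelly, a log2 fold change of -0.21 (SE 0.074). In both the groups were separate. Mrps5, at -0.097 (SE 0.070), and Mrps24, at -0.13 (SE 0.084), completed the 5 of 26 small-subunit genes (19.2%) that were lower without overlap, against 5.95% of all features. Of the 26 genes 15 were classed with a bacterial counterpart, the 5 among them, and no difference between the classes was tested. Mrps21 measured 17.7, 21.4 and 20.1 CPM in the OVX libraries against 16.6, 18.2 and 18.1 CPM with royal jelly, with overlapping groups and a log2 fold change of -0.16 (SE 0.099).

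Other small-subunit genes went the opposite way. Mrps23, a mitochondria-only protein, measured 27.3, 25.9 and 27.2 CPM in the OVX libraries against 29.6, 29.5 and 27.6 CPM with royal jelly. Every OVX+RJ library was above every OVX library, with a log2 fold change of 0.11 (SE 0.069; edgeR adjusted p = 0.983), and they stayed separate under TMM factors, while the groups of Mrpl27 and Mrps5 then overlapped. Mrps28, related to bacterial S1, measured 4.95, 6.48 and 5.08 CPM in the OVX libraries against 7.17, 5.79 and 6.82 CPM with royal jelly. OVX 2 lay inside the OVX+RJ range, and the log2 fold change of 0.26 (SE 0.14) was the highest of the 78.

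Of the small-subunit genes fixed for their roles, Mrps12 (-0.21) is given above, and Mrps18b (0.13) and Mrps18c (-0.0076) follow below. The others had the following values. Mrps22 had a log2 fold change of -0.0076 (SE 0.12), Mrps34 of 0.032 (SE 0.082), Mrps2 of -0.0046 (SE 0.091) and Mrps7 of 0.061 (SE 0.089). Mrps22 and Mrps34, in which inherited variants impair respiratory chain assembly, had overlapping groups, at 18.1, 17.0 and 15.7 against 14.5, 18.6 and 17.3 CPM for Mrps22. Further genes were named by other rules. Mrps25, at -0.086 (SE 0.13), and Mrps33, at -0.049 (SE 0.088), were among the lowest p of their class. Mrps35, the lowest per length in this subunit, was at 0.024 (SE 0.093).

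The S18 family has 3 members in mammals, which sit at different places: Mrps18a in the large subunit, and Mrps18b and Mrps18c in the small one. Mrps18a measured 23.8, 26.5 and 25.4 CPM in the OVX libraries against 24.5, 25.7 and 22.8 CPM with royal jelly. Mrps18b measured 12.9, 10.6 and 10.7 CPM in the OVX libraries against 12.2, 12.9 and 12.4 CPM with royal jelly. Mrps18c measured 17.7, 18.02 and 20.001 CPM in the OVX libraries against 19.5, 16.5 and 19.5 CPM with royal jelly. All 3 overlapped between groups, with log2 fold changes of -0.053 (SE 0.084), 0.13 (SE 0.10) and -0.0076 (SE 0.10). Mrps36, the gene no longer counted as a ribosomal subunit, was at 0.094 (SE 0.10).

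The deviations of the genes were also averaged by library. The score of a set in a library is the mean, over its genes, of log2 CPM minus the gene's mean over the 6 libraries. For the large-subunit genes it stood at 0.0084, 0.057 and 0.049 for the OVX libraries 1, 2 and 3, against -0.061, -0.0076 and -0.046 for the OVX+RJ libraries. Across the groups, OVX 1 and OVX+RJ 2 were the nearest to each other. For the small-subunit genes it stood at 0.0099, 0.013 and 0.018 against -0.011, -0.011 and -0.019, a narrower band. Over all features tested it stood at 0.034, -0.0095 and 0.0048 against -0.046, 0.0068 and 0.010. OVX+RJ 1 was the lowest library there too, as for the large-subunit genes. Of the 78 genes, 21 had their lowest value in OVX+RJ 1 and 21 in OVX+RJ 3, against 12 in OVX+RJ 2 and 11, 9 and 4 in OVX 1, 2 and 3. Such counts were not made over all features. The median coefficient of variation of a gene was 5.91% in OVX and 7.08% in OVX+RJ, and it was larger in OVX+RJ for 47 genes.

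**Figure D4:**
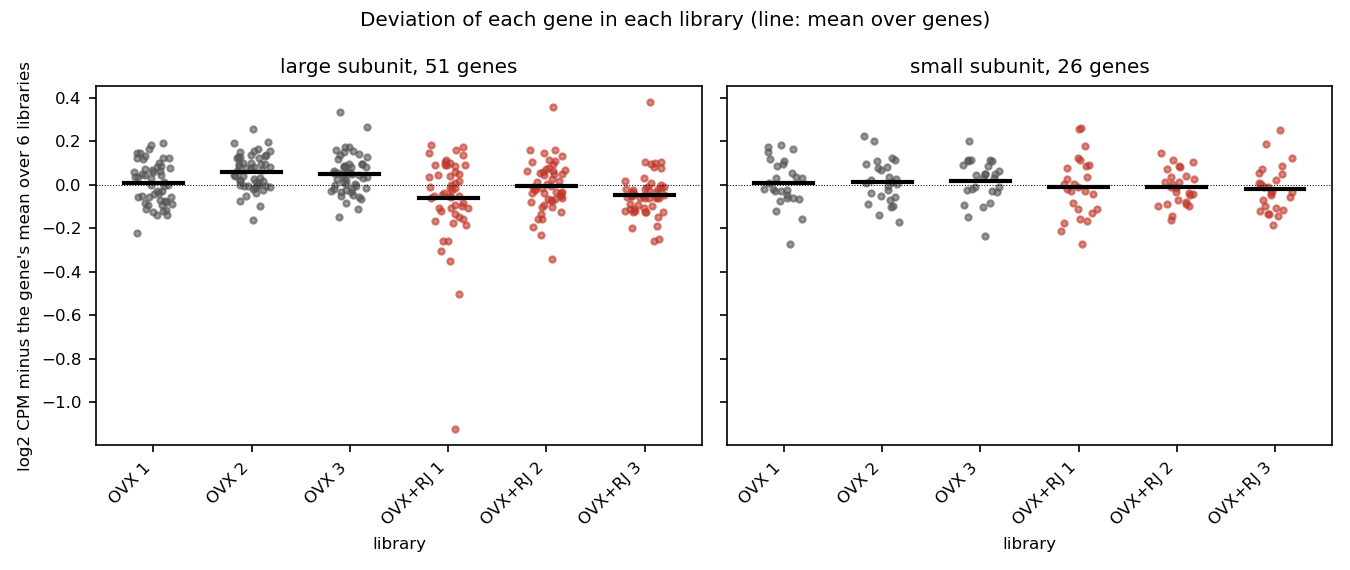
Log2 CPM of each large-subunit gene (left, 51 genes) and small-subunit gene (right, 26 genes) in each library, minus the gene's mean over the 6 libraries, with black lines for the mean over genes. The large-subunit means run from 0.057 in OVX 2 to -0.061 in OVX+RJ 1, the small-subunit means stay between -0.019 and 0.018, and the lowest single point is Mrpl53 in OVX+RJ 1. Over all features tested the mean in OVX+RJ 1 was -0.046.

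The size of the difference moved with transcript length, which is given here for the annotated principal transcript (418 to 7300 bases, median 1302). The 26 genes with the shortest transcripts had a median log2 fold change of -0.12 (21 negative), the middle 26 of -0.040 (18 negative) and the longest 26 of -0.023 (16 negative). Protein-coding genes over the same length ranges, mitoribosomal genes included, had medians of -0.074 (791 genes), -0.036 (2424 genes) and -0.0031 (11140 genes), and 70.0%, 61.6% and 51.2% of them were negative. The share of protein-coding genes lower without overlap was 15.2% in the short range, 8.62% in the middle and 4.83% in the long. For the mitoribosomal genes of the same ranges it was 19.2%, 11.5% and 11.5%, or 5, 3 and 3 of 26 genes. In OVX+RJ 1 the score of the 26 short genes was -0.11 and that of all short protein-coding genes -0.085. In the middle and long ranges it was -0.0064 and -0.018 there for mitoribosomal genes, and -0.046 and -0.052 for protein-coding genes. OVX+RJ 1 was the lowest library for protein-coding genes in each range. Without OVX+RJ 1 the median of the short genes was -0.060 and that of the other 52 was -0.056. The part of length or RNA quality in the counts of negative genes was not tested.

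**Figure D5:**
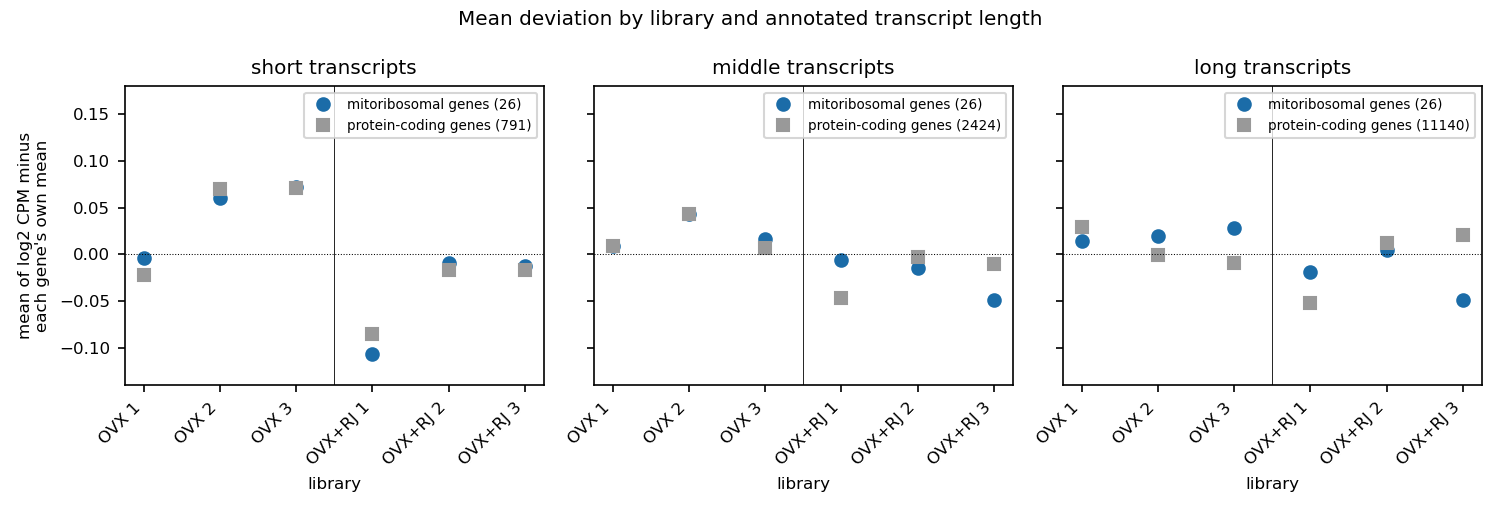
Mean deviation in log2 CPM by library, for mitoribosomal genes (circles) and all tested protein-coding genes (squares) in 3 ranges of annotated transcript length, with OVX libraries left and OVX+RJ libraries right of the vertical line. In the short range both sets were lowest in OVX+RJ 1, at -0.11 and -0.085. Protein-coding genes of the middle and long ranges were also lowest in OVX+RJ 1, at -0.046 and -0.052. The mitoribosomal genes of those ranges were lowest in OVX+RJ 3, at -0.048 and -0.049.

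Neighbouring genes that start back to back had mixed signs. Among the 22 genes with a neighbour read the other way, 9 had the sign of the neighbour's log2 fold change, and 11 of the 22 neighbours were negative. Mrps11, a small-subunit gene, starts across the first stretch printed above from Mrpl46 and is counted from both sides. It measured 14.7, 13.9 and 14.7 CPM in the OVX libraries against 14.5, 14.2 and 17.8 CPM with royal jelly, a log2 fold change of 0.099 (SE 0.11) beside -0.28 for Mrpl46. For Mrps11 OVX+RJ 1 and 2 lay inside the OVX range, and only OVX+RJ 3 was high. Sars2, the mitochondrial seryl-tRNA synthetase opposite Mrps12, had a log2 fold change of 0.075 (SE 0.13), and Twnk, the helicase of mitochondrial DNA opposite Mrpl43, one of 0.0037 (SE 0.12) beside -0.10 (SE 0.094) for Mrpl43. Fau, whose product includes a protein of the cytosolic ribosome, was at -0.078 (SE 0.082) beside -0.038 (SE 0.11) for Mrpl49. In the GENCODE M21 annotation 28 of the 78 genes overlap an exon on the opposite strand, Mrpl46, Mrps11 and Mrpl43 among them, and 8 one on the same strand. Overlapping genes may share counts, since the strand setting of the counting is not given in the sources used here.

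Genes that work with the mitoribosome were counted list by list. The 5 subunits with other names, among them Dap3, were all negative, and their median log2 fold change was -0.012. Values for Dap3 and Chchd1 were so near 0 that the sign is not settled, as TMM factors shift the median of all features by 0.011. Ptcd3, at -0.012 (SE 0.086), was only just further from 0 than that shift, and its sign is not settled either. Dap3, a GTP-binding protein of the small subunit, measured 60.1, 64.5 and 63.0 CPM in the OVX libraries against 61.8, 61.0 and 63.6 CPM with royal jelly, groups that overlapped. Gadd45gip1, a large-subunit protein, measured 22.1, 21.2 and 21.4 CPM in the OVX libraries against 17.9, 20.2 and 19.8 CPM with royal jelly. It was the only one of the 5 whose groups were separate (20%, against 5.95% of all features lower without overlap), at a log2 fold change of -0.16 (SE 0.077).

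Of 26 genes for ribosome assembly and for modification of its RNA, 14 were negative, with a median of -0.0062. Mettl17, needed for assembly of the small subunit, measured 23.3, 19.1 and 23.7 CPM in the OVX libraries against 13.7, 20.2 and 17.9 CPM with royal jelly. Its log2 fold change was -0.35 (SE 0.17), and OVX+RJ 2 lay inside the OVX range. Mrm1, a methyltransferase for the large ribosomal RNA, measured 7.06, 7.22 and 6.31 CPM in the OVX libraries against 7.41, 8.48 and 8.12 CPM with royal jelly, with separate groups and a log2 fold change of 0.22 (SE 0.093). It was the only gene of this list higher without overlap (3.85%, against 4.53% of all features), and 0 were lower (against 5.95%).

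Of 16 translation factors and mRNA partners, 10 were negative, with a median of -0.032. Slirp, which binds mitochondrial mRNAs together with Lrpprc, measured 12.0, 14.2 and 16.0 CPM in the OVX libraries against 11.04, 11.9 and 8.09 CPM with royal jelly. The groups were separate, and the log2 fold change was -0.44 (SE 0.19). In this list 1 gene was lower without overlap (6.25%, against 5.95% of all features) and 1 higher (6.25%, against 4.53%). Tufm, the elongation factor that brings tRNAs to the ribosome, was at -0.14 (SE 0.15), with OVX+RJ 1 the lowest of the 6 libraries. Mrrf, the recycling factor, was at -0.23 (SE 0.13).

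Of 17 mitochondrial aminoacyl-tRNA synthetases, which load tRNAs with amino acids, 9 were negative, with a median of -0.0069. Mars2, for methionine, measured 30.2, 28.5 and 29.6 CPM in the OVX libraries against 43.0, 34.3 and 35.3 CPM with royal jelly. Every OVX+RJ library was higher, OVX+RJ 1 most of all, and the log2 fold change was 0.35 (SE 0.11). Among the 17, 2 genes were higher without overlap (11.8%, against 4.53% of all features) and 2 lower (11.8%, against 5.95%). Aars2, for alanine, was at -0.25 (SE 0.14) and Lars2, for leucine, at -0.21 (SE 0.13). Of 12 genes for transcription and replication of mitochondrial DNA 7 were negative (median -0.068), and of 10 nuclear regulators of mitochondrial genes 4 were (median 0.021). Medians and fold changes closer to 0 than the shift of 0.011 under TMM factors have no settled sign here either. No gene of these lists was called, and the lowest adjusted p in each was 0.983 (edgeR).

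Cytosolic ribosomal protein genes and nuclear genes for oxidative phosphorylation also had more negative than positive log2 fold changes. Of the former 76 of 87 were negative, with a median of -0.10, and the groups were separate for 24.1% (lower in OVX+RJ) and 1.15% (higher). Of the latter 66 of 84 were negative, with a median of -0.077, and the groups were separate for 28.6% (lower) and 1.19% (higher). Over all features these shares were 5.95% and 4.53%, and over short protein-coding genes 15.2% and 1.26%. The median transcript lengths of the sets were 869 and 787 bases. The difference of either from the mitoribosomal genes was not tested. Of the 13 proteins that the mitoribosome makes, 5 were negative at the mRNA level, with a median of 0.024, and this was not tested against any other set.

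The ribosomal RNAs of the mitoribosome are listed in the table although the libraries were made from poly(A) RNA. mt-Rnr1, of the small subunit, measured 2409, 2509 and 2792 CPM in the OVX libraries against 2107, 2690 and 2358 CPM with royal jelly. The groups overlapped, and the log2 fold change was -0.11 (SE 0.12; edgeR adjusted p = 0.983). mt-Rnr2, of the large subunit, measured 3901, 3947 and 4539 CPM in the OVX libraries against 3575, 4354 and 3787 CPM with royal jelly, a log2 fold change of -0.080 (SE 0.11). For both RNAs, OVX+RJ 1 was the lowest of the 6 libraries. Selection for poly(A) tails captures only part of these RNAs, so the values do not measure the number of ribosomes.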

How the data were processed

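Poly(A) RNA from frozen hippocampus was sequenced with a directional kit, per the labels' protocols. Per the submitters' processing notes, the tools included bcl2fastq 2.19, fastp 0.23.4, HISAT2 2.2.1 and StringTie 2.2.1 and the build was GRCm39; the strand setting, annotation and handling of multiply mapped reads were not given in the sources used here. The authors deposited expected counts per gene, not scaled between libraries. They were rounded to whole numbers (51 features had other values) and filtered by filterByExpr, and the groups (3 against 3) were compared in R 4.3.3 with glmQLFit and glmQLFTest of edgeR 4.0.16, with libraries scaled to their totals over all rows, and p-values were adjusted by Benjamini-Hochberg over all features (threshold 0.05). The biological coefficient of variation, common to all, came to 0.135. Standard errors and 95% intervals are moderated ones of limma 3.58.1 on log2 CPM (prior count 2). An exact two-sided permutation test of 3 against 3 cannot go under 0.1, so none is given. The fit was tested on simulated data. The mitoribosomal genes are defined by name alone, but this family and the lists were chosen for description with earlier results of these data known. Named genes were the 4 with the lowest p in each of 4 classes by subunit and origin, the highest and lowest per length in each subunit, 16 fixed for their roles, and up to 4 per partner list. Mrpl16, Mrpl27, Mrpl43, Mrpl48, Mrpl49, Mrpl53, Mrps5, Mrps11, Mrps24, Mrps28 and the neighbours Sars2, Twnk and Fau were named after their values were seen. Transcript length, exon overlap and neighbours came from GENCODE M21 (GRCm38), matched by symbol. Alternatives were TMM, DESeq2 and upper quartile factors, DESeq2 1.42.0, limma-voom, 2 other filters (at least 1 count, a mean of 50), robust empirical Bayes, a replicate block and each library left out.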

Additional observations from a re-analysis of the deposited data

How the results depend on the processing

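No mitoribosomal gene was called under any of 15 alternatives, and the lowest adjusted p was 0.815. Over all settings the median log2 fold change stayed between -0.082 and -0.040 and the number of negative genes between 50 and 60 (36 to 43 in the large subunit, 11 to 17 in the small). Without each library in turn the median ran from -0.082 (without OVX+RJ 2) to -0.040 (without OVX+RJ 3), the genes at an unadjusted p under 0.05 from 0 to 5, and the features called in the whole table from 0 to 7. DESeq2 called 12 features (10 higher, 2 lower). The replicate numbers carry no stated pairing, and the deviations of same-numbered libraries correlated at 0.046, -0.0023 and 0.0032. With the replicate number as a block, 1 feature was called (higher) and 1 mitoribosomal gene had an unadjusted p under 0.05. Of 480 log2 fold changes of 32 named genes, 31 changed sign, in 12 genes: Mrpl17, Mrpl33, Mrpl44, Mrpl58, Mrps2, Mrps18c, Mrps22, Mrps25, Mrps30, Mrps33, Mrps34 and Mrps35. Of the 480, 0 moved by over 1 standard error. Leaving out 1 of 3 libraries can hardly move a value further, and the other alternatives refit the same counts. The 0 therefore does not measure stability. With TMM factors 10 of the 78 mitoribosomal genes were lower without overlap and 1 was higher. Among all features 5.17% were lower and 4.9% higher without overlap under these factors. The causes were not tested. The lowest count was 112, and with 3 libraries per group the median standard error was 0.091.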
